A study of Mus musculus with 6 samples.

Results

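The antisense noncoding genes described here are 321 genes that GENCODE types as antisense and that had at least 50 raw reads in each of 6 mouse melanoma tumours. They are 321 of the 53801 genes in the count files and of the 2805 antisense genes among these. Kcnq1ot1, Airn, Nespas and the Snhg genes were left out by name. The members were thus chosen by their raw read counts, so their level is a description. Just inside it were Gm10244 and Sap30bpos, with 50 reads in their lowest tumour, and just outside it were Gm9968 and 1700047A11Rik, with 49. All 321 members passed the filter on low counts and were among the 7561 genes tested between the groups, whereas 750 of the 2484 other antisense genes were.

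An antisense gene is transcribed from the strand opposite to another gene, which it overlaps in whole or in part. Some antisense RNAs are known to act on the gene across from them, by interference between polymerases, by recruiting chromatin modifiers or by pairing with its transcript, but for most no function has been shown. To count such a gene apart from its partner, a library must keep the strand of the RNA and the counting must use it.

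Tumours grew under the skin of wild type C57BL/6 mice aged 10 to 12 weeks, from injected cells of the murine melanoma line B16-F10. In the SEVO group, cells had been kept before injection in a chamber flushed with 2% sevoflurane, a volatile anaesthetic, for 30 min and then closed for a further 2 h. The CTRL group received unprimed cells. Primed cells were injected into awake mice. Each group held 3 tumours, and RNA was taken from small pieces of them. Whether each tumour came from a separate mouse is not said in the labels, so p-values measure the spread between these samples. In such bulk tissue, fewer cells of a type and less RNA per cell cannot be told apart.

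The reads that fell on genes numbered 723431 to 1348676 per tumour, which was 2.06% to 4.61% of the uniquely aligned reads. CTRL tumour 1 stood apart, with Gm10800 and Gm10801 taking 49.0% of its counted reads, against 1.31% to 35.5% in the other 5 tumours. The labels name the cell type as monocytes and the source as tumour. All 7 melanocytic markers had reads in every tumour (summed reads 993 to 1056 in CTRL and 515 to 1506 in SEVO). Of the 12 monocyte and macrophage markers, 2 had reads in every tumour (165 to 224 in CTRL and 209 to 280 in SEVO).

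Each member was assigned the gene on the other strand that its exons overlapped most, or else the gene whose body it overlapped. The opposite gene was protein-coding for 317 members (98.8%). Exons lay opposite exons in 285 members (88.8%), against 1363 (54.9%) of the other antisense genes. The median share of a member's exon bases that lay opposite an exon was 27.27%, against 4.263% in the other antisense genes, and the median exon length was 1695 against 867.5 bases. Inside the body of the opposite gene lay 176 members (54.8%), while 93 (29.0%) overlapped its 3′ end with their own 3′ end and 44 (13.7%) its 5′ end with their own. The remaining 8 spanned it. Overlaps by 3′ ends made up 13.0% of the other antisense genes. Members were found on 20 chromosomes, and 19 of them shared an opposite gene with another member.

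How members and partners face each other is shown for 4 of the 6 members opposite hypoxia and glycolysis genes, which had the highest median fold change among the lists described below. Of each pair, the member is read 5′ to 3′ on its own strand and the opposite gene on the other strand. Capitals mark bases of coding exons of the opposite gene and what lies opposite them. Sequences are those of GENCODE M21 transcripts on GRCm38.
Gm45507 (chr7:138894417-138894476, plus strand) is shown where it faces Bnip3, a mitochondrial protein of mitophagy and cell death.
Gm45507: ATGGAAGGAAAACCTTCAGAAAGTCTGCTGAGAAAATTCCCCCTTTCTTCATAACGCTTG
Bnip3: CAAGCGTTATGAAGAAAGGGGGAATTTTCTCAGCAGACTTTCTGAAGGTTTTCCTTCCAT
Gm12454 (chr4:43508688-43508747, minus strand) is shown at its start, where it faces Car9, a membrane-bound carbonic anhydrase.
Gm12454: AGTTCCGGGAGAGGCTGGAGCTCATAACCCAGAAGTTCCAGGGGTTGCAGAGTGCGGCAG
Car9: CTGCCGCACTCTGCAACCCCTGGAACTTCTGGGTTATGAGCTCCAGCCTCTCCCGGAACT
Gm15283 (chr12:73926537-73926596, minus strand) is shown at an exon border of Hif1a, the oxygen-regulated subunit of the hypoxia transcription factor.
Gm15283: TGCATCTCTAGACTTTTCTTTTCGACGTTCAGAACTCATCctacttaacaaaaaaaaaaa
Hif1a: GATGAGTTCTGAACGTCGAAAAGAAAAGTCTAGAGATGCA
Gm17035 (chr15:66930870-66930929, plus strand) is shown where it faces Ndrg1, a stress-responsive gene.
Gm17035: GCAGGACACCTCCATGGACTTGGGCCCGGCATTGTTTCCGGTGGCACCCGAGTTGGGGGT
Ndrg1: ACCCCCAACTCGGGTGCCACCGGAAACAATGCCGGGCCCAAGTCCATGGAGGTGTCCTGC
A further such member, Gm17034, lies in the body of Hk2, the hexokinase of the first step of glycolysis, and no exon base of it lies opposite an exon.

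Counted reads were far denser on the members than on the genes across from them. Members were chosen for at least 50 reads in every tumour, and their partners were not. The comparison thus draws on the values used for the choice. Per kb of exon, and as the mean of the 6 tumours, the member lay above its opposite gene in 320 of 321 pairs (99.7%), with a median ratio of 48.5. Gm4117, singled out after its values were seen, was the exception: this member of 52997 exon bases had 3.04 reads per kb against 4.15 of Xrcc4, a factor of DNA end joining. In each tumour taken alone, 320 or 321 members were denser than their opposite gene. Within the members, the density was higher where more of the exons faced exons. The median was 61.6 reads per kb in the 79 members with under 10% of their exon bases opposite. It was 129 in the 153 members with 10% to 50%, and 240 in the 89 members with 50% or more. The read minimum held at every exon length, so short members needed a higher density to enter. The part of exon length in this trend was not tested. Along their whole length 21 members lay opposite exons. Their lowest count in a tumour was 53 reads, where the rule already required 50 of every member.

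**Figure D1:**
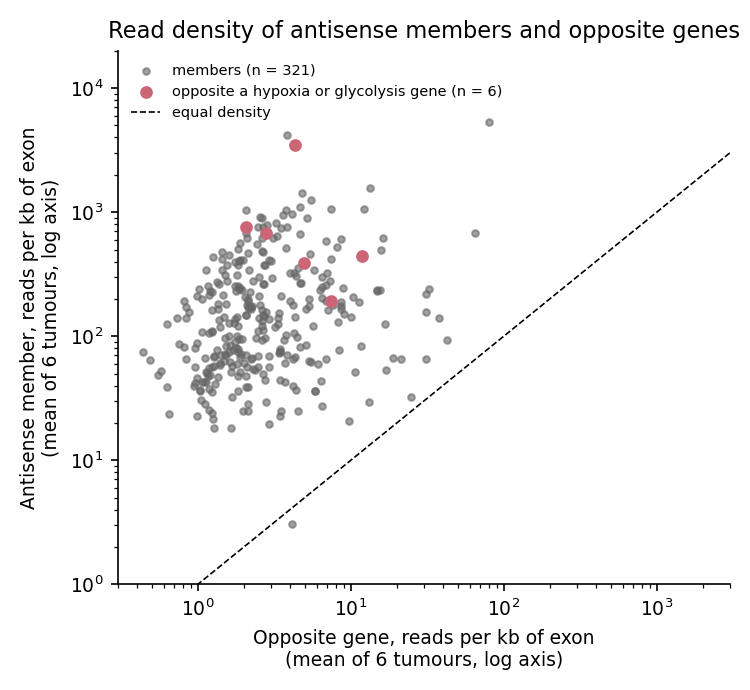
Mean reads per kb of exon over the 6 tumours for each of the 321 members (vertical, log axis) against its opposite gene (horizontal, log axis), with the line of equal density and the 6 members opposite hypoxia or glycolysis genes in red. All members but 1 lie above the line, with a median ratio of 48.5. Members were chosen by their reads and the opposite genes were not.

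Neither the strand setting of the counting nor whether the library kit keeps strand is given in the sources used here. Reads of an antisense gene and reads of its partner thus cannot be told apart in these counts. Every level or fold change given for a member may hold reads of either strand. HTSeq sets a read over 2 genes aside as ambiguous when it ignores strand, and it set aside 3838 to 6114 reads per tumour. Reads counted on members numbered 60796 to 139521. These numbers are unlike, as ambiguous reads come from all genes. A median of 27.27% of a member's exon bases lay opposite an exon. What the numbers say of the strand setting was not tested. HTSeq assigned 27930688 to 41026677 reads per tumour to no feature.

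The member with the highest level was Gm20628, across from Hist2h3b, a histone H3 gene. It had 9990, 25600 and 15700 CPM (counts scaled to library size with TMM) in CTRL tumours 1 to 3 and 24400, 24000 and 18000 in SEVO tumours 1 to 3. The groups overlapped, with CTRL tumour 1 lowest and CTRL tumour 2 highest. Histone genes have near-identical copies, so both values of this pair are uncertain. The next in level was Gm26658, across from Syt4, a synaptotagmin, with 3050 CPM as the mean of 6 tumours. Gm44170 (2640 CPM) lay wholly opposite exons of Sec61a1, the channel of the endoplasmic reticulum translocon, and Gm17638 (2560 CPM) lay opposite Eif3d, a subunit of a translation initiation factor. Gm26811 (2050 CPM) faced Plxna1, a semaphorin receptor, and Gm10143 (1570 CPM) faced Fen1, the flap endonuclease of DNA replication. Gm12758 (1400 CPM) lay across from 4931406P16Rik, and Gm37422 (1370 CPM) lay across from Smyd2, a lysine methyltransferase. Gm45507 (2070 CPM) and Gm15283 (1060 CPM) faced hypoxia genes, and 4930435M08Rik (1230 CPM) lay within Dct, an enzyme of melanin synthesis, without facing an exon of it. Per kb, Gm20628 had 5310 reads, Gm44170 had 4190 and Gm45507 had 3510, whereas the others named here had 234 to 1060.

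Of these members, Gm45507 was the only one with groups that did not overlap. CTRL tumour 1 was the lowest of the 6 tumours in all of them except 4930435M08Rik, where CTRL tumour 3 was lower.

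The question of the comparison was whether priming with sevoflurane left a mark on the tumours' RNA. Members took 4.51%, 16.7% and 8.35% of the counted reads in CTRL tumours 1 to 3 and 16.1%, 15.4% and 11.7% in SEVO tumours 1 to 3. CTRL tumour 2 lay above every SEVO tumour and the other 2 CTRL tumours below, so the groups overlapped. Without Gm10800 and Gm10801 in the total, the shares were 8.84%, 16.9% and 12.9% in CTRL and 17.5%, 16.9% and 14.4% in SEVO. The members moved largely together between tumours: CTRL tumour 1 was the lowest of the 6 in 264 of the 321 members, and SEVO tumour 1 was the highest in 148, CTRL tumour 2 in 98 and SEVO tumour 2 in 63. Their mean log2 CPM was 7.65 ± 0.441 in CTRL and 8.02 ± 0.248 in SEVO tumours (SD, n = 3 each).

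**Figure D2:**
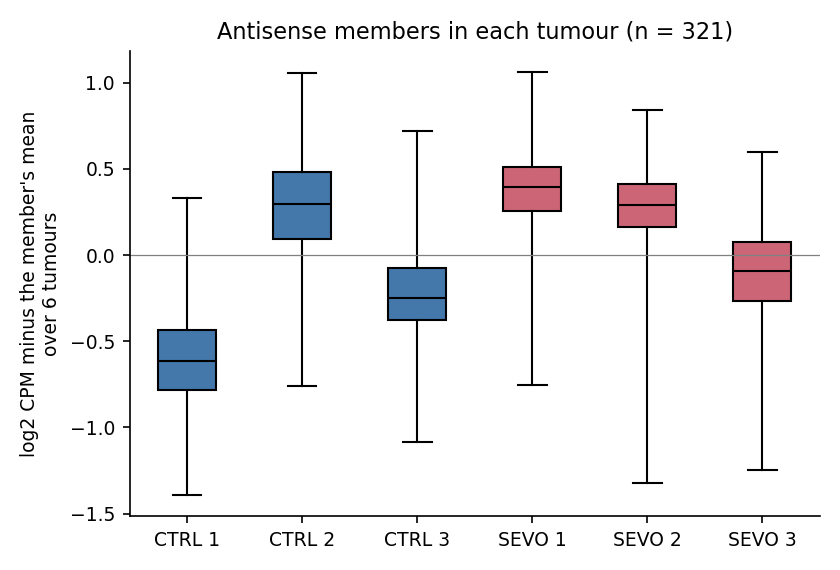
For each tumour, the log2 CPM of the 321 members minus each member's mean over the 6 tumours (boxes from the lower to the upper quartile with the median, whiskers to the extremes). CTRL tumour 1 was the lowest in 264 members, while CTRL tumour 2 lies with SEVO tumours 1 and 2.

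**Figure D3:**
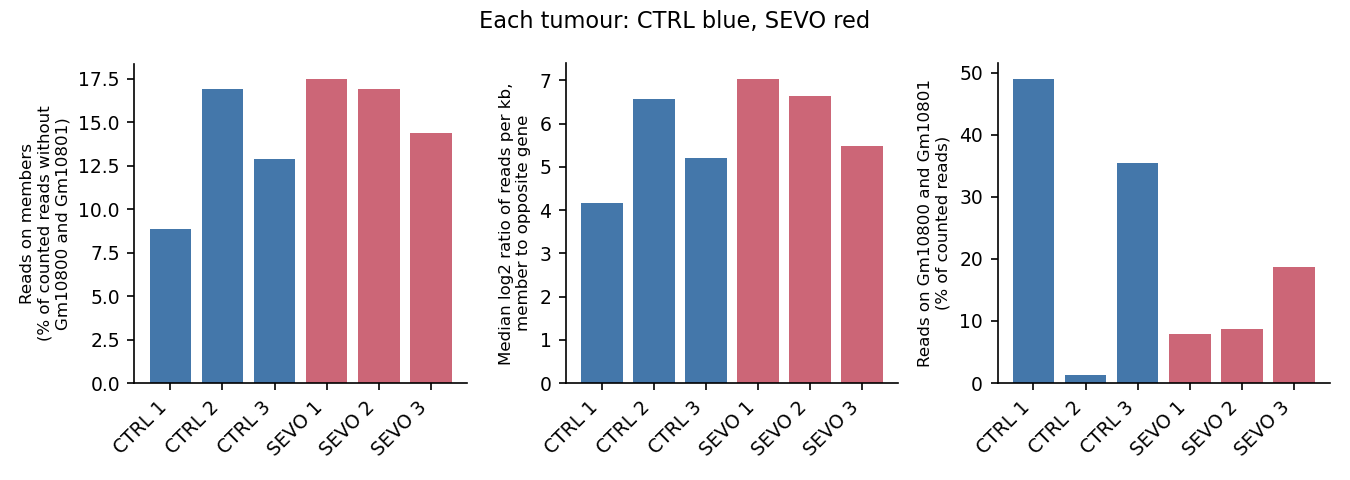
Per tumour, from left to right, the percentage of counted reads on members without Gm10800 and Gm10801, the median log2 ratio of member to opposite gene in reads per kb, and the percentage of counted reads on Gm10800 and Gm10801. The tumours with the largest share on that pair, CTRL 1 and CTRL 3, have the lowest values in the other panels.

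No member differed between SEVO and CTRL tumours at an adjusted p under 0.05 in the quasi-likelihood test of edgeR, where the lowest adjusted p was 0.741, nor did any of the 7561 genes (0%). The count was also 0 in DESeq2 (lowest adjusted p 0.989). At the study's thresholds, an unadjusted p under 0.02 and a fold of at least 1.5, 0 members passed in edgeR, against 79 of all tested genes (1.04%) and 8 in the direction of SEVO (0.106%). At an unadjusted p under 0.05, 3 members passed, all higher in SEVO, against 4.36% of all tested genes in either direction and 0.529% in that direction. DESeq2 gave 5 members at the study's thresholds, all higher, against 0.0613% of its 42422 genes in that direction and 0.116% in either. It gave 12 members at an unadjusted p under 0.05 (0.625% of all genes in either direction). DESeq2 was run without the filter on low counts, on every gene with any read. Most of its genes fell below that filter, which all members passed. Here and below, its shares of all genes are thus not like for like with the members.

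The fold changes of the members lay close together and mostly above 0. The median log2 fold change was 0.33 (quartiles 0.22 and 0.43, range -0.23 to 1.04), and 311 members (96.9%) were above 0. Over all genes tested the median was -0.02 and 48.9% were above 0, and over the other 750 antisense genes the median was 0.26. The median was 0.27 where 5′ ends overlapped, 0.33 inside the opposite gene and 0.35 where 3′ ends overlapped. It was 0.32 to 0.34 whether under 10%, 10% to 50% or 50% or more of the exon bases lay opposite exons. The groups did not overlap in 25 members (7.79%), each with SEVO above, whereas over all genes tested SEVO lay above in 4.17% and below in 4.39%, together 8.56%.

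These values moved with the tumours included, most of all with CTRL tumour 2. Without it, 58 members passed the study's thresholds in edgeR, all higher in SEVO (4.78% of all genes in that direction), 0 of them at an adjusted p under 0.05 (lowest 0.0743, against 0.346% of all genes and 0.067% higher in SEVO), while 130 had an unadjusted p under 0.05 (28.5% of all genes in either direction). The SEVO tumours then lay above CTRL in 217 members (22.5% of all genes), and the median log2 fold change was 0.76. In DESeq2 without this tumour, 234 members passed the study's thresholds, all higher (3.63% of all genes in that direction), and 193 had an adjusted p under 0.05 (2.84% of all genes, 2.79% higher). Without SEVO tumour 3, 125 members had groups that did not overlap, each with SEVO above (13.9% of all genes). In the other direction, the median log2 fold change fell to 0.13 without CTRL tumour 1, with 258 members above 0 (47.1% of all genes). It was 0.16 among genes with at least 10 reads in every tumour, with 270 members above 0 (49.6% of all genes). With Gm10800 and Gm10801 left out of the counts, the median was 0.34. The median log2 fold change of the melanocytic markers was -0.38 over 7 genes, and that of the 2 monocyte and macrophage markers tested was 0.25. Of the endothelial, T and NK cell and erythroid lists 1 gene each was tested, at -1.46, -0.14 and -0.11, and of the other 4 lists none was. The part of these markers in the members' values was not tested.

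**Figure D4:**
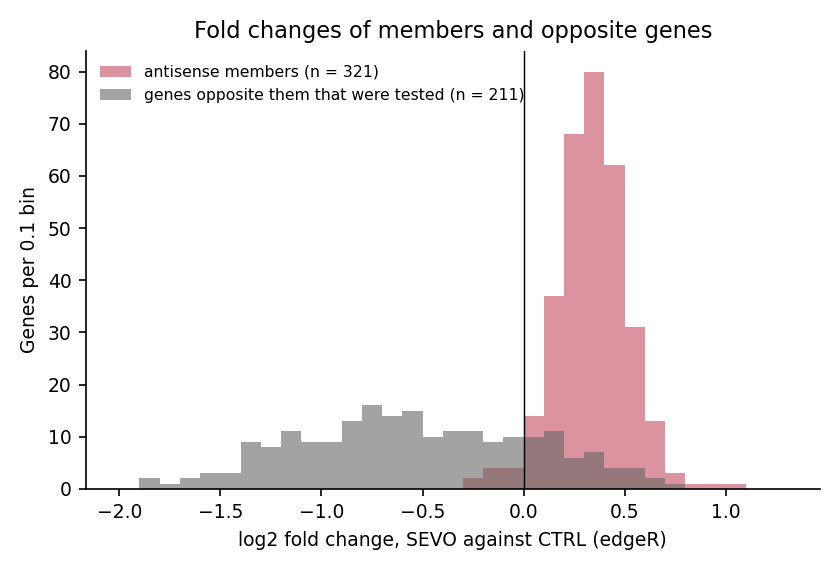
Number of genes per bin of 0.1 in log2 fold change of SEVO against CTRL from edgeR, for the 321 members (red) and for the 211 opposite genes that were tested (grey). Members lie around a median of 0.33 and the opposite genes spread around -0.59.

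The genes across from them had fold changes mostly below 0. Of 310 distinct genes, 211 had enough reads to be tested, and their median log2 fold change was -0.59, with 45 above and 166 below 0. At the study's thresholds 3 were lower and 0 higher in SEVO, against 0.939% of all genes lower. All protein-coding genes tested had a median of -0.33. In the 221 pairs with both genes tested, the member's log2 fold change exceeded that of its partner in 208, and in 164 the member was above and the partner below 0. The ratio of reads within a library needs no scaling between libraries. The median log2 ratio of member to partner, per kb, was 4.16, 6.58 and 5.21 in CTRL tumours 1 to 3 and 7.04, 6.65 and 5.48 in SEVO tumours 1 to 3. CTRL tumour 2 lay among the SEVO tumours. The mean log2 ratio was higher in SEVO in 303 of 321 pairs, with a median difference of 1.00. Every SEVO tumour exceeded every CTRL tumour in 16 pairs (4.98%) and lay below in 0. Neither count was computed for other pairs of genes, so they are not read as particular to the members. The exact permutation test of 3 tumours against 3 has 20 splits and cannot give a two-sided p below 0.1.

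Members across from genes of hypoxia and glycolysis had the highest median fold change among the functional lists with more than 1 member. All 6 were above 0, with a median log2 fold change of 0.71, and in 4 the groups did not overlap, against 4.17% of all genes with SEVO above. At the unadjusted p under 0.05, 2 passed in edgeR, both higher (0.529% of all genes in that direction), and none had an adjusted p under 0.741. Of the 5 members that DESeq2 gave at the study's thresholds, 4 lay opposite genes of this list.

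Gm45507, across from Bnip3 with 97.1% of its 519 exon bases opposite exons, had 1250, 1410 and 1400 CPM in CTRL and 3280, 2730 and 2330 CPM in SEVO tumours. Every SEVO tumour was well above every CTRL tumour, and CTRL tumour 2 did not stand apart. The log2 fold change, given here and below ± its standard error (SE), was 1.04 ± 0.43, with an adjusted p of 0.741 in edgeR. Bnip3 itself had 4 to 20 reads per tumour and was not tested.

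Gm17034 in Hk2 (chr6:82764282-82767288) had 262, 296 and 429 CPM in CTRL and 462, 785 and 678 CPM in SEVO tumours. The groups did not overlap, but SEVO tumour 1 lay close to CTRL tumour 3. On the log2 scale the change was 0.96 ± 0.39, again with an adjusted p of 0.741 in edgeR. Hk2 itself changed by -0.81 ± 0.50, also short of the threshold (adjusted p = 0.741 in edgeR). The member's log2 ratio to Hk2 was higher in every SEVO tumour, by 1.62 in the mean (exact permutation p = 0.1).

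The other 4 of these members were named after their values were seen, apart from Gm15283. Gm12454, whose 5′ end overlaps that of Car9, had 390, 334 and 489 CPM in CTRL and 724, 699 and 619 CPM in SEVO tumours, with no overlap. Its log2 fold change was 0.75 ± 0.37 (edgeR, adjusted p = 0.741), and that of Car9 was -0.05 ± 0.42, with a sign that changed between alternatives. Gm12868, across from the glucose transporter gene Slc2a1, had 245, 268 and 230 CPM in CTRL and 381, 384 and 423 CPM in SEVO tumours. Within each group its tumours were close together, and its log2 fold change was 0.68 ± 0.34 (edgeR, adjusted p = 0.741). Gm17035, wholly opposite exons of Ndrg1, had 306, 243 and 395 CPM in CTRL and 394, 393 and 461 CPM in SEVO tumours. CTRL tumour 3 lay within the SEVO range, and the log2 fold change was 0.40 ± 0.36. Gm15283 spans Hif1a on the other strand, and had 657, 1330 and 890 CPM in CTRL and 1270, 1370 and 838 CPM in SEVO tumours. Its groups overlapped widely, with a log2 fold change of 0.28 ± 0.43.

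**Figure D5:**
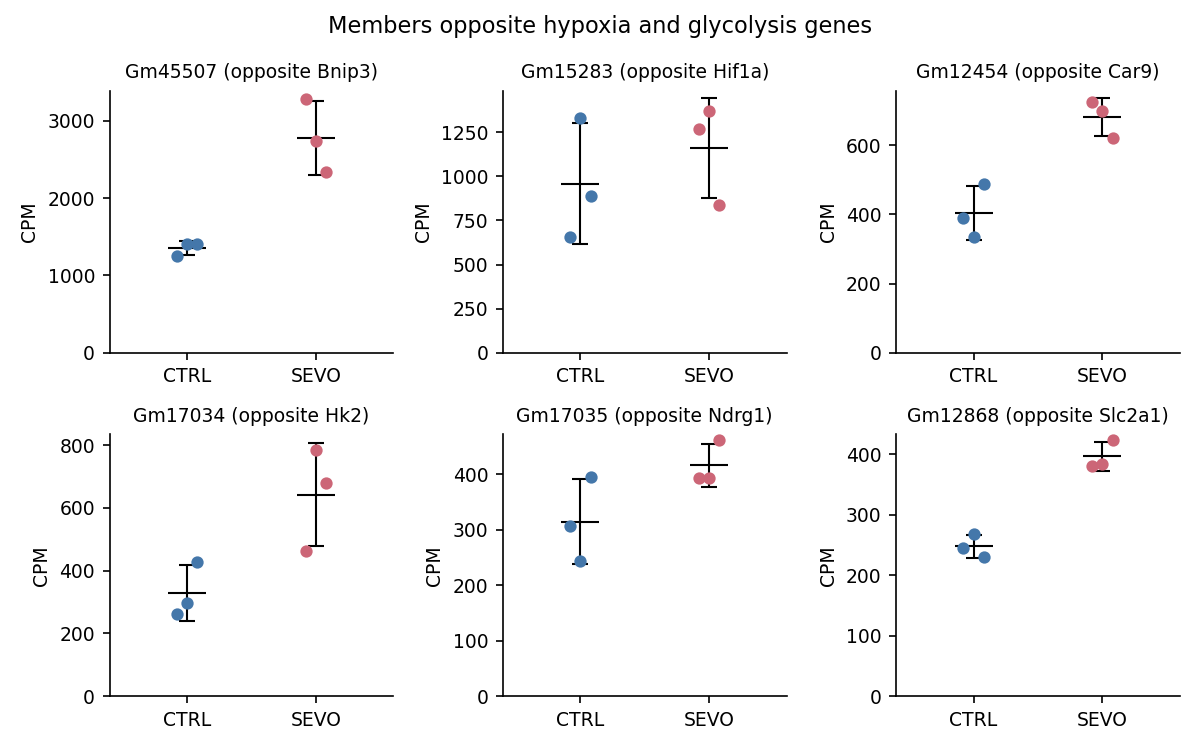
CPM of the 6 members opposite hypoxia and glycolysis genes in each tumour (points; CTRL blue, SEVO red), with the mean and SD of each group (n = 3). The groups do not overlap in Gm45507, Gm12454, Gm17034 and Gm12868, and overlap in Gm15283 and Gm17035.

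The lowest p of the members belonged to Gm13966, one of 4 members inside Fmn1, a formin that nucleates actin filaments. It had 110, 112 and 117 CPM in CTRL and 231, 193 and 174 CPM in SEVO tumours. The groups did not overlap and the CTRL tumours were nearly alike, and the log2 fold change was 0.82 ± 0.32 (edgeR, adjusted p = 0.741). The other 3 members in Fmn1, named after their values were seen, had log2 fold changes of 0.62 (Gm13963), 0.36 (4930533B01Rik) and 0.31 (Gm13964), and the groups overlapped in the last 2. For Fmn1 itself it was 0.16 ± 0.32. Likewise the 3 members inside Rapgef4, an exchange factor activated by cyclic AMP, were seen first and then named: Rapgef4os2, Rapgef4os3 and Rapgef4os1 had log2 fold changes of 0.49, 0.43 and 0.40.

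Next by p among the members higher in SEVO were 1700109K24Rik and Gm15893, which lie within genes for RNA-binding proteins without facing their exons. 1700109K24Rik, inside Rbfox2, a splicing regulator, had 69.2, 89.1 and 82.6 CPM in CTRL and 141, 127 and 111 CPM in SEVO tumours. Gm15893, inside Msi2, had 80.1, 87.8 and 87.2 CPM in CTRL and 133, 110 and 158 CPM in SEVO tumours. Neither pair of groups overlapped, and both log2 fold changes were 0.65 ± 0.31 (edgeR, adjusted p = 0.741).

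Only 10 members were below 0, none of them with an unadjusted p under 0.05. The 5 with the lowest p were Apol7d, Gm15624, Gm15419, Gm48529 and Hoxaas3, with log2 fold changes of -0.22, -0.19, -0.18, -0.23 and -0.12. In all of them the groups overlapped, and each changed sign under at least 1 alternative. The genes across from them include the matrix genes Fn1 and Col4a2, the dynactin subunit Dctn1, the actin-binding Tagln and the homeobox gene Hoxa7. Gm48529 was the most spread, with 223, 287 and 126 CPM in CTRL and 266, 70.8 and 205 CPM in SEVO tumours.

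Across all lists of opposite genes, hypoxia and glycolysis included, 67 members lay opposite a gene of some list and 254 opposite none. The latter had a median log2 fold change of 0.33. Lists were matched by gene symbol and are not complete, so some of the 254 lie opposite genes of these functions. The 19 members across from genes of lysosome, vesicles and transport had a median of 0.38, all above 0. Groups did not overlap in 3 (15.8%, against 4.17% of all genes with SEVO above). Among these 3 is Gm12868, which was also counted in the hypoxia and glycolysis list. Of the 19, Gm44170 and Gm26636 had the highest level. Gm26636, across from Copg1, a coat protein of Golgi vesicles, had 446, 1100 and 652 CPM in CTRL and 1110, 1010 and 673 CPM in SEVO tumours. The 18 members across from transcription factor and chromatin genes had a median of 0.30, with 17 above 0 and 2 that did not overlap (11.1%, against the same 4.17%). Among these, Gm26759, across from the transcriptional corepressor Irf2bp2, had 499, 844 and 776 CPM in CTRL and 1100, 1170 and 881 CPM in SEVO tumours. The SEVO tumours lay above the CTRL tumours by a small margin, and the log2 fold change was 0.57 ± 0.40 (edgeR, adjusted p = 0.741).

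The 7 members of the cell cycle and growth list had a median of 0.38 and were all above 0. A230087F16Rik had 472, 886 and 622 CPM in CTRL and 1270, 998 and 1020 CPM in SEVO tumours, with no overlap and a log2 fold change of 0.73 ± 0.41. Its partner Cdc42bpb is a kinase of the cytoskeleton that the list holds by its name. Gm11175, wholly opposite exons of Jund, a subunit of AP-1, had groups that overlapped (0.38 ± 0.38). The 6 members opposite genes of RNA binding and splicing had a median of 0.29. This list leaves out Rbfox2 and Msi2, whose members 1700109K24Rik and Gm15893 had log2 fold changes of 0.65 each. Gm29361, inside Rbm25, had 424, 613 and 651 CPM in CTRL and 941, 779 and 743 CPM in SEVO tumours, with no overlap, whereas Gm43579, opposite the helicase gene Ddx54, had overlapping groups and a log2 fold change of 0.33.

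Medians of the smaller lists were 0.41 for ribosome and translation (4 members), 0.31 for the respiratory chain and mitochondria (3 members), 0.51 for chaperones and protein turnover (3 members) and 0.42 for melanocyte genes (2 members). Gm16185 lies within Slc25a36, a mitochondrial carrier, without facing an exon and had 590, 690 and 617 CPM in CTRL and 913, 955 and 842 CPM in SEVO tumours. These groups lay apart by more than their spread (632 ± 51.6 and 903 ± 57.0 CPM, SD, n = 3 each), with a log2 fold change of 0.51 ± 0.37 (edgeR, adjusted p = 0.741). 1700018A23Rik, across from Ndufa9 of respiratory complex I, overlapped between groups (0.31 ± 0.46), as did Gm9754 and Gm9725, across from Fbxw8 and Usp38 of the ubiquitin system (0.51 and 0.19). The melanocyte pair was 4930435M08Rik in Dct, at 0.20, and Gm44506 in Oca2, a melanosome transporter, at 0.64 with SEVO tumour 1 at 319 CPM and the other 5 tumours at 104 to 158. No list had a member at the study's thresholds in edgeR.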

How the data were processed

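The authors trimmed reads with Trimmomatic 0.36, aligned them with STAR 2.6.0c, processed them with SAMtools 1.8.3 and counted them with HTSeq 0.9.1 (versions from the submitters' processing notes) on GRCm38 with GENCODE M17, after removing ribosomal RNA reads. The deposited values are raw counts per gene without normalization, each file ending in 5 tallies of reads not counted, which stayed out of library sizes. The strand setting is not given in the sources used here.

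Of 53801 identifiers, 53706 were matched without version to GENCODE M21 on the same build, for types, positions, opposite genes and sequences. The opposite gene was the one with the largest overlap of exons, else of gene bodies, with protein-coding genes preferred. Groups came from the sample titles. All 6 tumours were fitted with edgeR 4.0.16 in R 4.3.3 (TMM, filterByExpr, quasi-likelihood test, Benjamini-Hochberg adjustment over all tested genes), checked on simulated counts. Standard errors were derived from the F statistic. Counting depth (723431 to 1348676 reads per tumour) and 3 tumours per group limit the precision. Ratios to the opposite gene used a pseudocount of 0.5 reads.

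The members and lists were chosen with earlier results of these data known. Genes named are the 12 members with the highest mean CPM, the 5 with the lowest p in each direction, the 2 with the highest CPM of each list with at least 2 members, those nearest the read minimum and the genes opposite them. Others are said to be named after their values were seen. The result of 1 member that the rule names is not reported here. Columns of the functional lists were matched by gene symbol and do not hold every gene of a function. A gene may be in 2 lists, as Slc2a1 is. Alternatives were DESeq2 1.42.0, other normalizations, filters, thresholds and read minimums, the replicate number as a block, and leaving out each tumour. Nothing states that tumours with the same number belong together, so the number was not part of the fit.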

Additional observations from a re-analysis of the deposited data

How the results depend on the processing

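The cause of each change below was not tested. The alternatives that scale by uniquely aligned reads and that run DESeq2 without each tumour were chosen after seeing the data. The number of members at the study's thresholds was 0 in edgeR. It was 5 with the DESeq2 Wald test, against 49 of all its 42422 genes. As DESeq2 took in every gene with any read, its totals are not like for like with the members. With at least 10 reads in every tumour it was 1, against 68 of 4480 genes. At a p under 0.05 it was 3, against 4.36% of all genes without a minimum fold. With each tumour left out, the number at the study's thresholds ranged from 0 to 58 in edgeR and from 1 to 234 in DESeq2. Both upper ends were without CTRL tumour 2, against 1449 of 8961 genes in edgeR and 1615 of 42280 in DESeq2. In DESeq2 without SEVO tumour 3 it was 4, against 96 of 41552 genes. The number at an adjusted p under 0.05 was 0 in every fit of 6 tumours. With a tumour left out it was 0 to 193. Only DESeq2 without CTRL tumour 2 gave any, against 1199 of all its 42280 genes. Groups that did not overlap numbered 25, against 8.56% of all genes. They numbered 13 among the 161 members with at least 100 reads in each tumour and 30 among the 473 genes with a mean of at least 50 reads. With a tumour left out they numbered 26 to 217. It was 217 without CTRL tumour 2 and 125 without SEVO tumour 3, against 22.5% and 13.9% of all genes with SEVO above. Groups of 2 and 3 part more easily than 3 and 3, so these counts are not like for like with the 25. The median log2 fold change of 0.33 was 0.72 with no filter on low counts, and ranged from 0.13 (without CTRL tumour 1) to 0.76 in edgeR and from 0.24 to 1.34 in DESeq2 (0.79 without SEVO tumour 3) with a tumour left out. It stayed above 0 in every alternative run. The median of all genes, -0.02, was 0.22 with library size only, and the members then had 0.50. With other sets of genes tested as well, it was -0.38 with no filter, -0.55 in DESeq2 and -0.23 with uniquely aligned reads, and the members then had 0.72, 0.58 and 0.17. Members above 0 numbered 311, and 258 to 318 with a tumour left out in edgeR. The replicate number as a block gave 0 members at either threshold and a median of 0.36. Same-numbered tumours had correlations of -0.3989, 0.3195 and 0.083. Tumours of different number were not correlated, so these values do not decide whether the numbers pair the samples. By gene bodies alone, 297 members had the same opposite gene. The median difference in log2 ratio was 0.99 and 1.04 with pseudocounts of 1 and 0.1.

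Of 614 alternative log2 fold changes of 41 single genes, 572 kept their sign and stayed at an adjusted p of 0.05 or more. The other 42 changed sign. These alternatives left a tumour out in edgeR only. The fits of DESeq2 without a tumour, which gave up to 193 members at an adjusted p under 0.05, were not among the 614. At the study's unadjusted thresholds, which were not part of this count either, DESeq2 with all 6 tumours gave 5 members that edgeR did not. With the DESeq2 Wald test, the changed value was 0.04 for Apol7d, 0.14 for Gm15624, 0.12 for Gm15419, 0.03 for Gm48529, 0.20 for Hoxaas3, 0.08 for Gm10244, 0.36 for Car9 and 0.03 for Hif1a. With no filter on low counts, the changed value was 0.18 for Apol7d, 0.31 for Gm15624, 0.28 for Gm15419, 0.19 for Gm48529, 0.35 for Hoxaas3, 0.23 for Gm10244, 0.55 for Car9 and 0.19 for Hif1a. With library size only, the changed value was 0.05 for Gm15624, 0.05 for Gm15419, 0.10 for Hoxaas3, 0.00 for Gm10244, 0.27 for Car9 and 0.02 for Hif1a. With the replicate block, the changed value was 0.02 for Gm10244 and 0.02 for Car9. With a tumour left out in turn, the range was -0.00 to 0.63 for Gm26811, -0.03 to 1.07 for Gm10143, -0.36 to 0.10 for Apol7d, -0.36 to 0.03 for Gm15624, -0.25 to 0.04 for Gm15419, -0.58 to 0.24 for Gm48529, -0.18 to 0.08 for Hoxaas3, -0.35 to 0.72 for Gm10244, -0.21 to 0.38 for Car9, -0.75 to 0.01 for Hif1a and -1.77 to 0.16 for Ndrg1. 

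Depth left 211 of the 310 opposite genes with enough reads to be tested. Members are a choice by level in all 6 tumours, so they do not stand for the 2484 other antisense genes.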

Other observations

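Among the 2484 antisense genes that are not members, of which 1 met the read minimum and was left out by name, 750 had enough reads to be tested, 598 of them with a log2 fold change above 0 (79.7%), and 98 had no read in any tumour. The genes named here were chosen after their values were seen. At the study's thresholds 1 of them passed in edgeR: Gm15551, across from Camk2d, a calcium-dependent kinase. It had 10.9, 27.6 and 12.6 CPM in CTRL and 87.4, 34.3 and 22.9 CPM in SEVO tumours. SEVO tumour 1 was far above the rest and the groups overlapped (log2 fold change 1.49 ± 0.55 SE, adjusted p = 0.741 in edgeR).

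A second antisense gene across from Slc2a1, Gm12867, had 44.9, 31.4 and 64.3 CPM in CTRL and 60.9, 95.5 and 104 CPM in SEVO tumours. SEVO tumour 1 lay below CTRL tumour 3, and the log2 fold change was 0.88 ± 0.36 (SE, adjusted p = 0.741 in edgeR). Gm11724, across from Tmc8, had 26.7, 37.6 and 37.9 CPM in CTRL and 67.8, 80.5 and 44.7 CPM in SEVO tumours, which did not overlap (log2 fold change 0.91 ± 0.35 SE, adjusted p = 0.741 in edgeR). Of the other antisense genes tested, 58 lay above in all SEVO tumours and 10 below, or 9.07% together, against 8.56% of all genes tested.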
